A study of Arabidopsis thaliana with 12 samples.

Results

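The nuclear tRNA genes of Arabidopsis thaliana that lay at a MAC3A peak are described here, by amino acid, by position of the peak and by light condition. A tRNA gene was taken when at least 1 of the 6 MAC3A peak lists had a summit, the highest point of a peak, inside the gene or up to 1 kb from either end. Of 625 annotated tRNA genes on chromosomes 1 to 5, 160 met this rule (25.6%), and 465 did not. They were chosen by the peaks themselves, so this share, the folds and the amino acids are a description with no test. The rule treats blue and dark lists alike. Below, the tests of number and share consider all 625 tRNA genes in each library, though every gene counted there meets the rule by definition. The test of distance covers only the genes with a summit within 1 kb in that library. The same rule held for 11.6% of all 37887 nuclear genes and for 13.7% of the 27432 protein-coding genes, which have wider windows because they are longer. Among short RNA genes it held for 29.3% of 82 snRNA genes, 10.5% of 287 snoRNA genes and 5.52% of 326 miRNA genes.

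MAC3A was mapped by chromatin immunoprecipitation with sequencing (ChIP-seq), which recovers the DNA that a tagged protein is crosslinked to. The samples were seedlings with the genotype given as Columbia-4, labelled by their titles as blue light (3 MAC3A libraries and 3 controls) or dark (3 MAC3A libraries and 3 controls). The growth notes name MAC3A-GFP plants grown for 6 days under LED blue light for all 12 samples, several grams of plants each, so the dark condition rests on the titles alone. The notes also name plants with GFP alone as the control, whereas the titles call the controls input and the antibody is given as anti-FLAG M2. The promoter that drove the fusion is not given in the sources used here, and nothing says that replicates came from separate cultures, so p values measure only the spread between these libraries. The library code of dark replicate 3 repeats the replicate mark of dark replicate 2, and results are therefore also given without dark replicate 3. Each MAC3A library had its own peak list, and the controls' own signal was not analysed here. The blue lists held 1505, 1820 and 1578 peaks, and the dark lists 1285, 1225 and 1169.

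MAC3A belongs to the MOS4-associated complex of plants, related to the Prp19 complex that acts in pre-mRNA splicing, and is itself a U-box protein. tRNA genes, in contrast, are transcribed by RNA polymerase III, from promoter elements that lie within the transcribed gene and are recognised by the factor TFIIIC. They are short, and plant genomes carry many near-identical copies for each amino acid, some alone between protein-coding genes and some in tandem arrays. The annotation names the amino acid of 623 of the 625 nuclear tRNA genes but no anticodon, strand or sequence.

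More tRNA genes had a MAC3A summit in the blue-light libraries than in the dark libraries. Blue replicates 1, 2 and 3 had a summit at 92, 106 and 107 tRNA genes, and dark replicates 1, 2 and 3 at 29, 31 and 27. Every blue library lay above every dark library, with no overlap between the conditions. The mean was 102 ± 8.39 genes in blue light and 29 ± 2 in the dark (SD, n = 3 each), a ratio of 3.51 and a difference of 72.7 genes. A two-sided exact permutation test gave p = 0.10, the smallest p that 3 libraries against 3 can give. The difference was 71.7 genes without dark replicate 3.

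The blue lists were longer, but by less than the ratio of tRNA genes. The number of peaks had a blue to dark ratio of 1.33, and the number of protein-coding genes with a summit a ratio of 1.31 (2156 ± 200 genes in blue light and 1649 ± 73.3 in the dark, SD, n = 3 each). snRNA genes, whose products are the RNAs of the spliceosome, had a summit in 20 ± 1 cases in blue light and in 16 in each dark library, a ratio of 1.25. Other short RNA genes also had more summits in blue light. Counted as genes with a summit in at least 2 libraries of a condition, snoRNA genes numbered 13 in blue light and 5 in the dark (ratio 2.60), and miRNA genes 10 in blue light and 5 in the dark (ratio 2.00). By the same count tRNA genes numbered 99 in blue light and 24 in the dark (ratio 4.12), and the difference between these ratios was not tested. Peaks at tRNA genes made up 5.85%, 5.66% and 6.40% of the 3 blue lists and 2.02%, 2.45% and 1.97% of the 3 dark lists. The mean share was 5.97 ± 0.385% in blue light and 2.15 ± 0.263% in the dark (SD, n = 3 each). The two-sided exact permutation test again gave its smallest p, 0.10.

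The lists give no read totals, so the depth of a library, which bears on the weak peaks that pass the caller's limit, is unknown. As a measure of that limit, summits with a −log10 q below 2.5, the weakest of each list, had median folds of 2.36, 2.32 and 2.34 in blue light and 2.51, 2.69 and 2.47 in the dark, so weaker enrichment passed in the blue lists. Fold here is the enrichment over the local background that the authors' caller gave for each summit. Among summits with a fold of at least 2.69, the highest of these limits, the blue lists held 1016, 1118 and 1016 peaks and the dark lists 1107, 1068 and 993, a ratio of 0.994. At that limit 69, 82 and 86 tRNA genes had a summit in blue light, and 25, 27 and 26 in the dark, a ratio of 3.04. At a fold of at least 3 the numbers were 44, 58 and 54 in blue light and 21, 22 and 23 in the dark, with fewer peaks in the blue lists than in the dark lists (ratio 0.793). With lists cut to an equal 1169 peaks they were 78, 81 and 90 in blue light and 26, 30 and 27 in the dark.

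**Figure D1:**
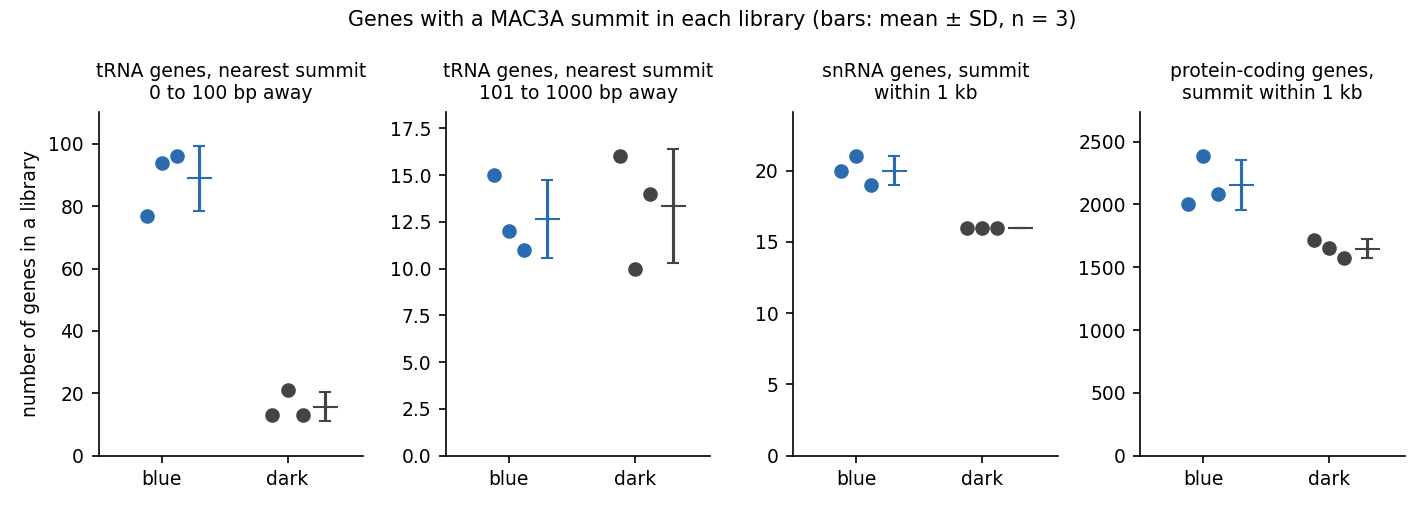
Number of genes with a MAC3A summit in each of the 3 blue and 3 dark libraries (points, with mean ± SD beside them), for tRNA genes with the nearest summit up to 100 bp away or between 100 and 1000 bp away, for snRNA genes and for protein-coding genes. For the near tRNA summits the blue libraries sit between 77 and 96 and the dark libraries between 13 and 21, whereas for the distant ones both conditions lie between 10 and 16.

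Over the 6 libraries together, most of the 160 genes had a summit within 100 bp. There were 141 such genes (88.1%), of which 89 had a summit inside the gene in at least 1 library. In any one library fewer genes had the summit inside, 35 of 92, 39 of 106 and 47 of 107 in blue light and 6 of 29, 8 of 31 and 6 of 27 in the dark. A tRNA gene had a median length of 73 bp. The 89 genes were 14.2% of all tRNA genes, against 6.13% of all nuclear genes with a summit inside them, and the 141 were 22.6%, against 7.36% of all nuclear genes within 100 bp of one. The nearest summit lay between 100 and 500 bp away for 4 more genes, and between 500 and 1000 bp away for the remaining 15. For comparison, the nearest summit lay within 100 bp for 87.5% of snRNA genes that met the 1 kb rule, for 16.7% of snoRNA genes, 55.6% of miRNA genes and 64.9% of protein-coding genes. With all summits moved by 200 to 5000 bp in either direction, at most 7 tRNA genes had a summit inside them, against the 89 found without a shift.

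Medians of the distance from tRNA genes to their summits were lower in every blue library than in any dark library. The median distance from a tRNA gene to its nearest summit within 1 kb was 14.5, 11.5 and 6 bp in the blue libraries and 116, 46 and 119 bp in the dark libraries. The means were 10.7 ± 4.31 bp in blue light and 93.7 ± 41.3 bp in the dark (SD, n = 3 each), a difference of -83.0 bp with the smallest p of the two-sided exact permutation test, 0.10. The rule caps these distances at 1 kb. Each median covers only the genes with a summit in that library, so it follows the mix of near and distant summits. The p for the distance is therefore no evidence apart from the counts of near and distant summits given below. Whether summits shifted at the same genes was not tested. Summits within 100 bp were found at 77, 94 and 96 tRNA genes in blue light and at 13, 21 and 13 in the dark, a ratio of 5.68. Summits between 100 and 1000 bp away were found at 15, 12 and 11 genes in blue light and at 16, 10 and 14 in the dark, a ratio of 0.950, and here the conditions overlapped.

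**Figure D2:**
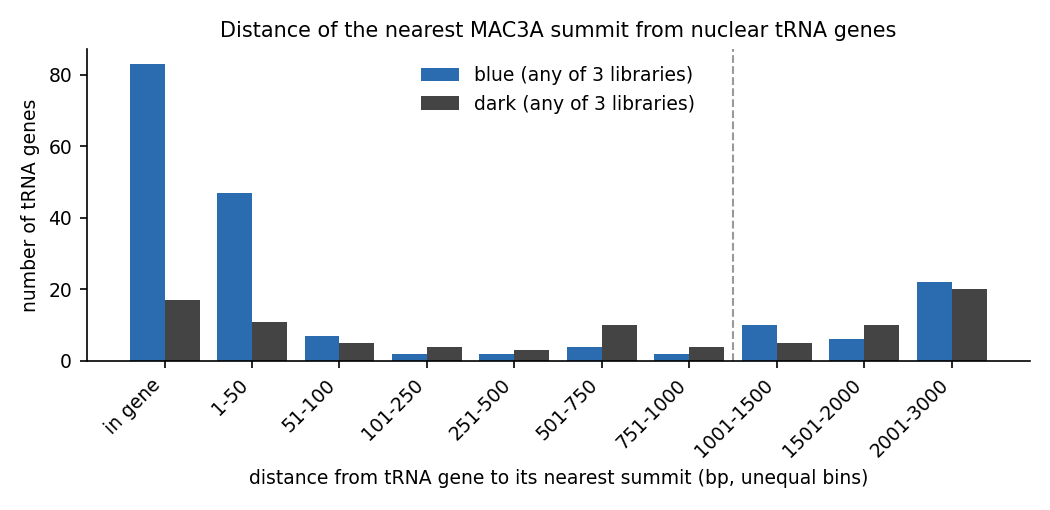
Number of nuclear tRNA genes (vertical axis) by distance in bp to the nearest summit in any of the 3 blue or any of the 3 dark libraries, in bins of unequal width, with the 1 kb limit dashed. In the first pair of bars a summit lay inside 83 tRNA genes in blue light and 17 in the dark, and between 100 bp and the limit there were 10 genes in blue light and 21 in the dark.

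A larger share of the dark than of the blue summits near tRNA genes lay in a protein-coding gene. In the dark this is a share of fewer summits, so it does not show a higher number of them in protein-coding genes. Of the summits within 1 kb of a tRNA gene, 24%, 17.4% and 15.3% lay in the body of a protein-coding gene in the blue lists and 44.8%, 40.6% and 50.0% in the dark lists. Over all summits of a list the share was 71.0% to 71.5% in blue light and 76.8% to 79.5% in the dark. With only summits outside protein-coding genes, a setting chosen after the data were seen, 75, 93 and 92 tRNA genes had a summit in blue light and 18, 20 and 16 in the dark, a ratio of 4.81.

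Peaks at tRNA genes were narrow and of middling strength. Their median width was 274, 274 and 267 bp in the blue lists and 308.5, 274.5 and 312 bp in the dark lists, against 346 to 357 bp for all peaks in blue light and 359 to 369 bp in the dark. The median fold of tRNA summits was 2.92, 3.01 and 2.94 in the blue lists, where all summits had medians of 2.78 to 2.85. In the dark lists it was 3.20, 3.44 and 3.49, where all summits had medians of 3.33 to 3.37. Of the 100 best peaks of a list by −log10 q, 1 or 2 were at a tRNA gene in every library.

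Most tRNA genes with a blue summit had one in more than 1 blue library, but most with a dark summit did not recur among the dark libraries. In blue light 147 of the 160 genes had a summit in at least 1 library, 99 in at least 2 and 59 in all 3. In the dark 54 genes had one in at least 1 library, 24 in at least 2 and 9 in all 3. The 99 genes were 15.8% of all tRNA genes, against 6.19% of all nuclear genes under the same rule in blue light, and the 24 were 3.84%, against 4.57% in the dark. Of the 54 genes with a dark summit 41 also had a blue one, and the nearest blue and dark summits were within 100 bp of each other at 39 of these 41, with a median gap of 13 bp. This gap is that of the closest blue and dark summits of a gene over all its libraries, so it leans low, and other summits of the gene could lie farther apart. More blue than dark libraries had a summit at 132 genes (21.1%, against 5.75% of all nuclear genes), and more dark than blue libraries at 17 (2.72%, against 2.84%). Just 1 library had a summit at 53 genes. No share over all nuclear genes is given for the counts in any library, in all 3 or in just 1. The same holds for the genes shared between conditions, and the blue lists were longer.

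**Figure D3:**
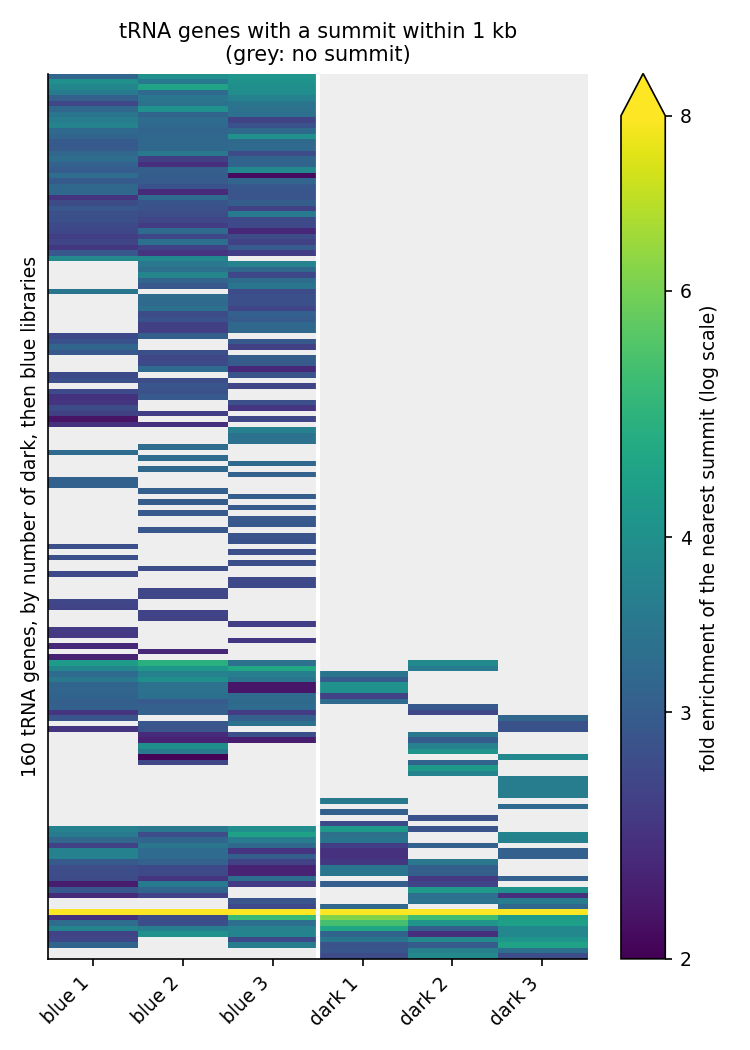
Fold enrichment of the nearest summit within 1 kb (colour, log scale, values above 8 in the top colour) for the 160 tRNA genes (rows) in the 6 libraries (columns), grey where there was no summit. Rows are ordered by the number of dark and then of blue libraries, so that the upper part holds the 106 genes with summits in blue libraries and none in a dark one, of which 33 had them in all 3. The share of all nuclear genes with the pattern of the 106 is not given here, and the blue lists were longer.

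A summit in all 3 blue and no dark libraries was found at 33 tRNA genes, 5.28% of all tRNA genes, against 0.985% of all nuclear genes and 1.13% of protein-coding genes. In at least 1 blue library, all 33 had a summit within 69 bp of the gene, and 27 had one inside it. The distance could be larger in another library. At AT3G09595, for example, the summits lay 519, 0 and 601 bp away in blue replicates 1, 2 and 3. Their folds ran from 2.08 to 4.50 with a median of 3.13. They comprised 4 genes for serine, 3 each for arginine, aspartate, glutamine, isoleucine, tyrosine and valine, 2 each for alanine, glutamate and phenylalanine, and 1 each for cysteine, glycine, histidine, leucine and threonine. The number was 49 without blue replicate 1 and 33 to 41 without any other library. It was 13 when a fold of 3 or more was asked for and 15 when a −log10 q of 5 or more was.

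The 10 of these with the highest median fold each had their own peak, and 9 of them had no protein-coding gene at the summit. The glutamine tRNA gene AT5G23665 had folds of 3.14, 4.03 and 4.11 in blue replicates 1, 2 and 3 and no summit in the dark, with peaks on chromosome 5 between 7981220 and 7981574 (TAIR10) and summits 1, 22 and 10 bp from the gene. Its nearest protein-coding gene was LCB2 (AT5G23670), for a subunit of serine palmitoyltransferase. The isoleucine tRNA gene AT1G07100 had folds of 4.01, 3.50 and 4.07 in blue light and no dark summit (chromosome 1, 2177521 to 2178192). It lay 64 bp from F2KP (AT1G07110), whose enzyme makes and breaks down fructose 2,6-bisphosphate, and its summits were inside the tRNA gene in blue replicates 1 and 2.

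The arginine tRNA gene AT5G65015 had folds of 3.77, 4.50 and 3.98 in blue light and none in the dark (chromosome 5, 25972471 to 25972872). It lay 103 bp from the asparagine synthetase gene ASN2 (AT5G65010), and its summits were 0, 0 and 21 bp from the tRNA gene. The cysteine tRNA gene AT5G41265 had folds of 3.52, 3.22 and 3.94 in blue light and none in the dark (chromosome 5, 16507443 to 16507742), beside BSK8 (AT5G41260), a gene for a kinase of the brassinosteroid-signalling kinase family. It was the only cysteine tRNA gene of 15 with a summit in any library.

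The phenylalanine tRNA gene AT4G03435 had folds of 3.06, 3.44 and 3.67 in blue light (chromosome 4, 1520598 to 1521005). The valine tRNA gene AT2G03790 had folds of 2.68, 3.38 and 3.43 (chromosome 2, 1154231 to 1154524). A second valine tRNA gene, AT5G09655, had folds of 3.18, 4.03 and 3.38, with summits inside the gene in all 3 blue libraries (chromosome 5, 2993116 to 2993526), and lay 11 bp from PMDH2 (AT5G09660), a peroxisomal malate dehydrogenase gene. None of these had a summit in a dark library.

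Serine tRNA genes AT5G02725 and AT2G44320 had folds of 3.42, 3.13 and 3.32, and of 3.72, 3.22 and 2.84, in blue light (chromosome 5, 614492 to 614790, and chromosome 2, 18309867 to 18310178). AT5G02725 overlapped the protein-coding gene AT5G02720, which also held at least 1 of its summits. The glutamate tRNA gene AT1G09110 had folds of 3.58, 3.27 and 2.66 (chromosome 1, 2939299 to 2939630) with all 3 summits inside the tRNA gene, 54 bp from the proteasome ATPase gene RPT5B (AT1G09100). These 3 genes too had no dark summit.

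At 2 tRNA genes a summit was found in all 3 dark libraries and in no blue one, 0.320% of all tRNA genes and close to the 0.330% over all nuclear genes. Neither had a summit on the tRNA gene. At the arginine tRNA gene AT3G19235 the dark summits lay 561, 926 and 935 bp away, with folds of 2.90, 3.65 and 3.34 (chromosome 3, 6664264 to 6664846), all inside the protein-coding gene AT3G19240. At the serine tRNA gene AT4G24565 they lay 673, 631 and 646 bp away, with folds of 2.75, 3.84 and 2.77 (chromosome 4, 12686550 to 12687298), in DIC2 (AT4G24570), a mitochondrial dicarboxylate carrier gene. With summits outside protein-coding genes only, no tRNA gene showed this pattern.

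Just 5 tRNA genes had a summit in all 6 libraries, 0.800% of all tRNA genes, against 2.16% of all nuclear genes and 17.1% of snRNA genes. The number was 9 without dark replicate 2 and 11 without dark replicate 3. The strongest was the lysine tRNA gene AT1G79300, with folds of 15.0, 17.3 and 13.7 in blue light and 25.0, 20.5 and 23.6 in the dark (chromosome 1, 29833578 to 29835312). Its peak was the best of its list by −log10 q in 5 libraries and had rank 3 in dark replicate 2. The summits, however, lay 568 to 589 bp from the tRNA gene in all 6 libraries, and at least 1 of them was inside the metacaspase gene MC7 (AT1G79310).

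The asparagine tRNA gene AT5G65615 had folds of 2.43, 2.76 and 5.12 in blue light and 6.14, 5.24 and 4.31 in the dark (chromosome 5, 26220356 to 26221950). Its nearest summits were 80 and 104 bp away in blue replicates 1 and 2, but 946 bp away in blue replicate 3 and 916, 933 and 952 bp away in the dark. The alanine tRNA gene AT5G61445 had folds of 3.72, 3.61 and 3.69 in blue light and 4.54, 3.04 and 3.83 in the dark (chromosome 5, 24708989 to 24710108), with summits 0, 137 and 0 bp away in blue light and 144, 70 and 61 bp away in the dark. The remaining pair had summits within 121 bp of the tRNA gene in every library.

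The serine tRNA gene AT5G51055 had folds of 3.28, 2.79 and 3.31 in blue light and 5.32, 4.12 and 4.37 in the dark (chromosome 5, 20756066 to 20756469), with summits 36 to 64 bp away in blue light and 44 to 121 bp away in the dark. The methionine tRNA gene AT2G33140 had folds of 2.66, 4.03 and 3.74 in blue light and 3.12, 2.41 and 3.80 in the dark (chromosome 2, 14047079 to 14047677). Its summits lay at most 28 bp from the gene in all 6 libraries, next to PKT3 (AT2G33150), a peroxisomal thiolase gene. AT2G33140 was the only tRNA gene with a summit within 28 bp in every library. Folds of different lists depend on the depth of each list and were not compared by a test.

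Another 11 tRNA genes, described after their values were seen, had a summit in all 3 blue and 2 dark libraries, 1.76% of all tRNA genes, against 0.623% of all nuclear genes. Their folds ran from 2.22 to 4.41 in blue light with a median of 3.10, and from 2.44 to 4.20 in the dark with a median of 3.06. The alanine tRNA gene AT1G06610 had folds of 3.68, 3.48 and 3.94 in blue light and 4.20 and 2.85 in dark replicates 1 and 2, with every summit within 39 bp of the gene. The glycine tRNA gene AT1G06880 had folds of 2.96, 3.10 and 2.61 in blue light and 2.51 and 3.47 in dark replicates 1 and 2, with summits inside the gene or within 80 bp of it. In this set 10 of 11 genes had a blue summit within 100 bp, and 8 of 11 a dark one.

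Every amino acid had at least 1 tRNA gene with a summit in at least 1 library. The number of genes with a summit in at least 2 libraries of a condition was higher in blue light than in the dark for all 20 amino acids, and 6 amino acids had no such gene in the dark. For cysteine, proline, threonine and tryptophan the counts were 1 gene in blue light and 0 in the dark. For serine tRNA genes it was 11 in blue light and 3 in the dark, for alanine 10 in blue light and 5 in the dark, and for aspartate 9 in blue light and 1 in the dark. Leucine and arginine tRNA genes each had 7 in blue light and 2 in the dark. Histidine and glutamine tRNA genes had 4 each in blue light and none in the dark. Counting genes with a summit in any library of a condition, blue light exceeded the dark for 19 amino acids. Proline tRNA genes were the exception, with 2 in blue light and 5 in the dark, and 4 of the 5 dark genes rested on the same summit.

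The share of tRNA genes with a summit varied between amino acids. Serine (17 of 64 genes), leucine (16 of 40), alanine (12 of 33) and arginine (12 of 36) had the most genes with one. Glycine and lysine tRNA genes had 11 each, of 41 and 30, and aspartate 10 of 26. The highest share was that of histidine, 6 of 10, followed by phenylalanine, 7 of 16. The lowest were threonine with 1 of 24, cysteine with 1 of 15, proline with 7 of 66, tyrosine with 8 of 75 and tryptophan with 2 of 14. The single threonine tRNA gene with a summit, looked up after the counts were seen, was AT5G44705, with folds of 3.14, 3.20 and 4.03 in blue light and no dark summit (chromosome 5, 18040652 to 18040959). These shares are over few genes and are given with no test between amino acids.

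**Figure D4:**
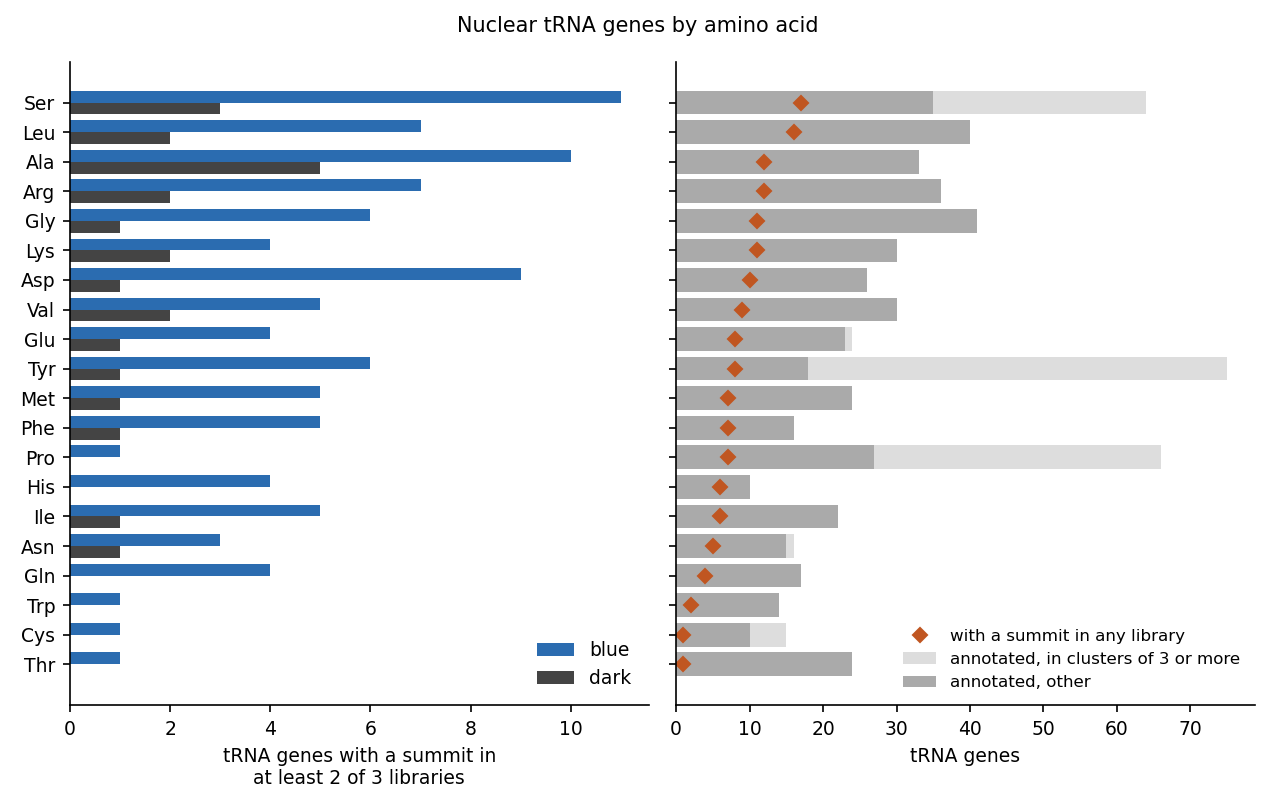
Left, the number of nuclear tRNA genes of each amino acid with a summit in at least 2 of 3 blue or at least 2 of 3 dark libraries. Right, the number of annotated genes (bars, the light part in clusters of 3 or more) and of genes with a summit in any library (diamonds). The blue bar is longer than the dark bar for each of the 20 amino acids, and serine, tyrosine and proline carry most of the clustered genes.

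Clusters of 3 or more tRNA genes had few summits. With genes no more than 1 kb apart joined, the 625 genes formed 494 loci, of which 475 were single genes, 9 were pairs and 10 held 3 or more genes. Single genes had a summit in 145 of 475 cases (30.5%) and genes in pairs in 11 of 18 (61.1%). Of the 132 genes in the 10 larger clusters, 4 had one (3.03%), and none had a summit in 2 libraries of a condition. The empty clusters named next were chosen after their values were seen. The largest, on chromosome 1 from AT1G56730 to AT1G57530, held 54 tyrosine and 27 serine tRNA genes, and none of the 81 had a summit in any library. Clusters of 11 proline genes on chromosome 1 (AT1G28820 to AT1G28920) and of 9 on chromosome 2 (AT2G33890 to AT2G33970) had none either. Arrays of this kind hold near-identical copies, and how reads that map to several copies were treated is not given in the sources used here, so that a lack of peaks there is uncertain.

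Outside clusters of 3 or more, 8 of 18 tyrosine genes (44.4%) and 17 of 35 serine genes (48.6%) had a summit, but 3 of 27 proline genes (11.1%). Over the 20 amino acids the share outside these clusters ran from 4.17% for threonine to 60.0% for histidine. By chromosome, with clustered genes included, 34 of 238 tRNA genes on chromosome 1 had a summit (14.3%). Chromosome 1 held the cluster of 81 genes without a summit. The number was 21 of 95 on chromosome 2 and 33 of 92 on chromosome 3. On chromosomes 4 and 5 it was 24 of 77 and 48 of 123 (39.0% on chromosome 5).

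The cluster with the most genes that met the rule held 6 proline genes on chromosome 1, from AT1G28930 to AT1G28990. A single summit in dark replicate 3 (fold 3.60, 10107603 to 10107827) lay inside AT1G28970 and within 1 kb of AT1G28950, AT1G28980 and AT1G28990. Among the pairs, AT1G17660 and AT1G17670, for aspartate and valine, shared a peak in the 3 blue libraries (folds 2.96, 3.17 and 3.22; chromosome 1, 6075741 to 6076047), with summits inside AT1G17660. The alanine pair AT3G63003 and AT3G63006 had summits in 3 blue and 2 dark libraries (chromosome 3, 23285566 to 23286028), within 62 bp of AT3G63006 in each. The pair AT3G59923 and AT3G59926, for valine and aspartate, shared summits in the same number of libraries (blue folds 2.78, 2.71 and 2.28, dark folds 3.43 and 3.04 in replicates 1 and 2), and the leucine pair AT2G36510 and AT2G36520 in 3 blue and 1 dark. The pair AT2G36140 and AT2G36150 shared a peak in blue replicates 2 and 3. Counted by locus, the 160 genes were 152.

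tRNA genes with a summit lay close to protein-coding genes, as single tRNA genes without one did. A protein-coding gene lay within 1 kb of 142 of the 145 single tRNA genes with a summit (97.9%), at a median distance of 90 bp, and of 303 of the 330 single tRNA genes without one (91.8%), at a median of 94.5 bp. Of all 160 genes, 15 overlapped a protein-coding gene and 3 had none within 1 kb. The nearest summit lay in a protein-coding gene for 13 of the 141 tRNA genes with a summit within 100 bp (9.22%) and for 8 of the 19 with the nearest summit farther away (42.1%).

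Around the limit of 1 kb, the last genes taken were the proline tRNA genes AT1G28990, 992 bp from a summit in dark replicate 3, and AT3G01705, 941 bp from one in blue replicate 1 (fold 2.29). The first left out were the aspartate tRNA gene AT1G75070, 1059 bp from a summit in blue replicate 2 (fold 3.41), and the alanine tRNA gene AT3G61755, 1086 bp from one in the same library (fold 4.01). Of the 160 genes, 143 also had a summit within 250 bp.

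Of 15 genes for RNA polymerase III, its factors and tRNA processing, 2 had a summit within 1 kb in any library (13.3%), against 13.7% of all protein-coding genes. These were TBP1 (AT3G13445), for the TATA-binding protein, with folds of 2.79 and 3.06 in blue replicates 1 and 2 and no dark summit, and TFIIIA (AT1G72050), a factor of 5S ribosomal RNA genes named after its values were seen, with no blue summit and a fold of 2.62 in dark replicate 1. The polymerase III subunit genes NRPC1 (AT5G60040) and NRPC2 (AT5G45140), the RNase P genes PRORP1, PRORP2 and PRORP3 and the tRNase Z genes had none. Of 10 genes named as aminoacyl-tRNA synthetases, whose enzymes load tRNAs with amino acids, 3 had a summit (30.0%, over few genes). ERS (AT5G64050), for a glutamyl-tRNA synthetase, had folds of 2.96, 3.48 and 3.48 in blue light and 3.25 and 3.14 in dark replicates 1 and 3. ATKRS-1 (AT3G11710), for lysyl-tRNA synthetase, had a fold of 2.66 in blue replicate 1 and of 2.66 in dark replicate 2, and NS2 (AT3G07420), for an asparaginyl-tRNA synthetase, had no blue summit and a fold of 3.77 in dark replicate 1. These 2 genes were also named after their values were seen.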

How the data were processed

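The tools named, per the submitters' processing notes, are MACS2 2.1.1, Bowtie2, ChIPseeker and SAMtools, with the build TAIR10. The sources used here do not give their order and parameters, the control of each list or the treatment of reads that map to several places. Each deposited peak list gives, per summit, a fold (ratio over the local background) and −log10 values of p and of q, all computed by the authors' caller, with a lowest −log10 q of 2.00 to 2.02. The deposited whole-number score was not used. Fold and −log10 q described, ranked or filtered summits within a list. For the stricter limits the same cut was applied to all 6 lists, and the counts that passed were compared between conditions. The summit position is the deposited peak start plus the offset.

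Genes, biotypes and amino acids came from a RefSeq table of assembly TAIR10.1, which gives no strand or sequence. It was used for names and for which genes lie at a summit, and printed coordinates are those of the peaks (TAIR10, counted from 1). All summits on chromosomes 1 to 5 were used. A gene's value in a library is that of its nearest summit. Counts and medians per library were compared by two-sided exact permutation tests over all 20 assignments of the condition labels. The code was tested on simulated data with planted summits. It ran in Python 3.11.15 with numpy 2.4.6 and pandas 2.3.3.

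The tRNA genes, gene lists and tests were chosen with earlier results of these data known. Named genes were the tRNA genes with summits in all 6 libraries; the 10 with the highest median fold among those with summits in all 3 libraries of a condition and none of the other; the clusters with the most genes that met the rule, up to 4; the 2 genes on either side of the 1 kb limit; and list genes with summits in at least 2 libraries of a condition. Pairs tied for the last places were all named, which exceeds 4. The lists were matched by gene ID and by name in the table, which also matched the tRNA splicing ligase gene RNL (AT1G07910, no summit), left out as it is no aminoacyl-tRNA synthetase. Alternatives were other windows, peak overlap, stricter limits, lists of equal length, loci and each library left out.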

Additional observations from a re-analysis of the deposited data

How the results depend on the processing

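The blue excess of tRNA genes kept its direction in all 12 alternatives (difference 30.0 to 78.0 genes), as did the share of peaks at tRNA genes in all 9 (1.94 to 4.90 points). The shorter blue median distance kept its direction in all 6 (-821 to -23.3 bp), and its size changed with the window. With 3 libraries against 3, none of these tests could pass 0.05. Leaving out each library in turn gave 70.0 to 77.5 genes, 3.61 to 3.98 points and -107 to -70.3 bp. With a replicate block (sign flips within same-numbered pairs) the difference was 72.7 genes, the share 3.82 points and the distance -83.0 bp, each with an exact permutation p of 0.25, the smallest possible. The block is counted among the 12, 9 and 6 alternatives. Its differences equal the main ones by construction, so their direction could not change. Whether the replicate numbers pair blue with dark libraries was not established here.

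The 160 genes were 89 with summits in the gene only and 103 for a −log10 q of 5 or more, and 143 to 157 with a library left out. The 33 genes of all blue and no dark libraries were 7 with gene bodies only, 15 for a −log10 q of 5 or more and 13 for a fold of 3 or more, and 33 to 49 with a library left out. The 2 genes of all dark and no blue libraries were 0 with gene bodies only, with 250 bp at either end and with summits outside protein-coding genes, 4 with 3 kb, and 2 with any library left out. The 5 genes of all 6 libraries were 0 with gene bodies only, 17 with 3 kb, 9 by peak overlap, 2 with summits outside protein-coding genes and 3 under each of 250 bp, a −log10 q of 5 or more and a fold of 3 or more. They were 5 to 11 with a library left out. The settings with folds of 2.69 or more, summits outside protein-coding genes and clusters of fewer than 3 were added after the data were seen. Narrower windows and stricter limits keep fewer summits by construction.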
